A study of Mus musculus with 9 samples.

Results

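The Nodal pathway genes described here are the ligand Nodal, its co-receptor Tdgf1, the receptors Acvr1b and Acvr2b, the feedback inhibitors Lefty1 and Lefty2, the transducers Smad2, Smad3 and Foxh1, and the repressor Skil. They were chosen by name, as every probe set whose only platform gene symbol is one of these 10 genes, which gave 10 of 18194 genes with such a symbol, and 20 of the 45101 probe sets on the array. Expression was measured on 9 Affymetrix arrays of the mouse embryonic stem cell line D3-pOct4, grown for 7 days in serum medium in 3 conditions. The DETA/NO group received the nitric oxide donor DETA/NO at 2 µM and no LIF. The no LIF group had neither addition, and the LIF group had 1000 U/ml of leukemia inhibitory factor, a cytokine that signals through STAT3 and maintains self-renewal. Each group has 3 arrays, replicates 1, 2 and 3, from passages 31, 33 and 34 of the 1 line. The labels do not say how far the cultures of a passage were separate, so p-values measure only the spread between these arrays.

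Nodal is a secreted ligand of the TGF-beta family that binds a pair of activin receptors together with the co-receptor Tdgf1, also called Cripto, and leads to phosphorylation of SMAD2 and SMAD3. These enter the nucleus with SMAD4 and act with DNA-binding partners such as FOXH1. Lefty1 and Lefty2 are direct targets that block the ligand and the co-receptor, so the pathway restrains itself; in embryonic stem cells it is known for its part in keeping the primed state and in mesendoderm formation.

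Several arrays stood apart before any gene of the pathway was read. Socs3, a STAT3 target, had signals of 95.8, 405 and 127 on the DETA/NO arrays, 102, 3054 and 330 on the no LIF arrays and 3213, 282 and 1794 on the LIF arrays, replicates 1 to 3 in each case. The arrays labelled no LIF replicate 2 and LIF replicate 2 therefore go against their labels, and every direction below is drawn as labelled. DETA/NO replicates 1 and 2 and LIF replicate 1 had a higher median signal, 20.8 to 23.3 against 13.9 to 17.8 on the other 6 arrays, and are called the brighter arrays. DETA/NO replicate 3 and no LIF replicate 1 were the most alike of all pairs (r = 0.977 over log2 signals). The 7 stem cell markers were all measured, and their summed signal was 12400 to 15400 with DETA/NO, 16500 to 22500 without LIF and 15100 to 18600 with LIF. Dppa5a, the brightest of them (mean signal 7166), weighs most in this sum. By mean log2 signal all 7 were lower with DETA/NO than without LIF, but only Dppa5a had groups that did not overlap there. In these bulk cultures fewer cells of a type and less RNA per cell cannot be told apart.

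No gene of the pathway passed the test in any comparison, as no probe set did. Of 29811 probe sets tested, limma called 0 at an adjusted p under 0.05 in each comparison (0% each), with 1498 at an unadjusted p under 0.05 for DETA/NO against no LIF (5.02%), 578 for DETA/NO against LIF (1.94%) and 459 for no LIF against LIF (1.54%). All 10 genes had a probe set that passed the filter on dim signals, and 19 of the 20 probe sets did; each gene is described by its brightest probe set. By these brightest probe sets, an unadjusted p under 0.05 was reached by 1 gene, Lefty1, for DETA/NO against no LIF and against LIF, and by 0 genes for no LIF against LIF. Groups that did not overlap were counted as well: 1 of the 10 genes for DETA/NO against no LIF (8.92% of all tested probe sets), 2 for DETA/NO against LIF (5.98%) and 0 for no LIF against LIF (7.6%). Over all 19 tested probe sets of the 10 genes, 1 reached an unadjusted p under 0.05 in each comparison, and 2, 3 and 2 had groups that did not overlap, in the same order; the additional ones are dim probe sets of Acvr1b and Smad3, given below. The median log2 difference of the 10 genes was 0.42, 0.17 and 0.09 in these comparisons, beside 0.08, 0.02 and -0.1 over all tested probe sets.

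**Figure D1:**
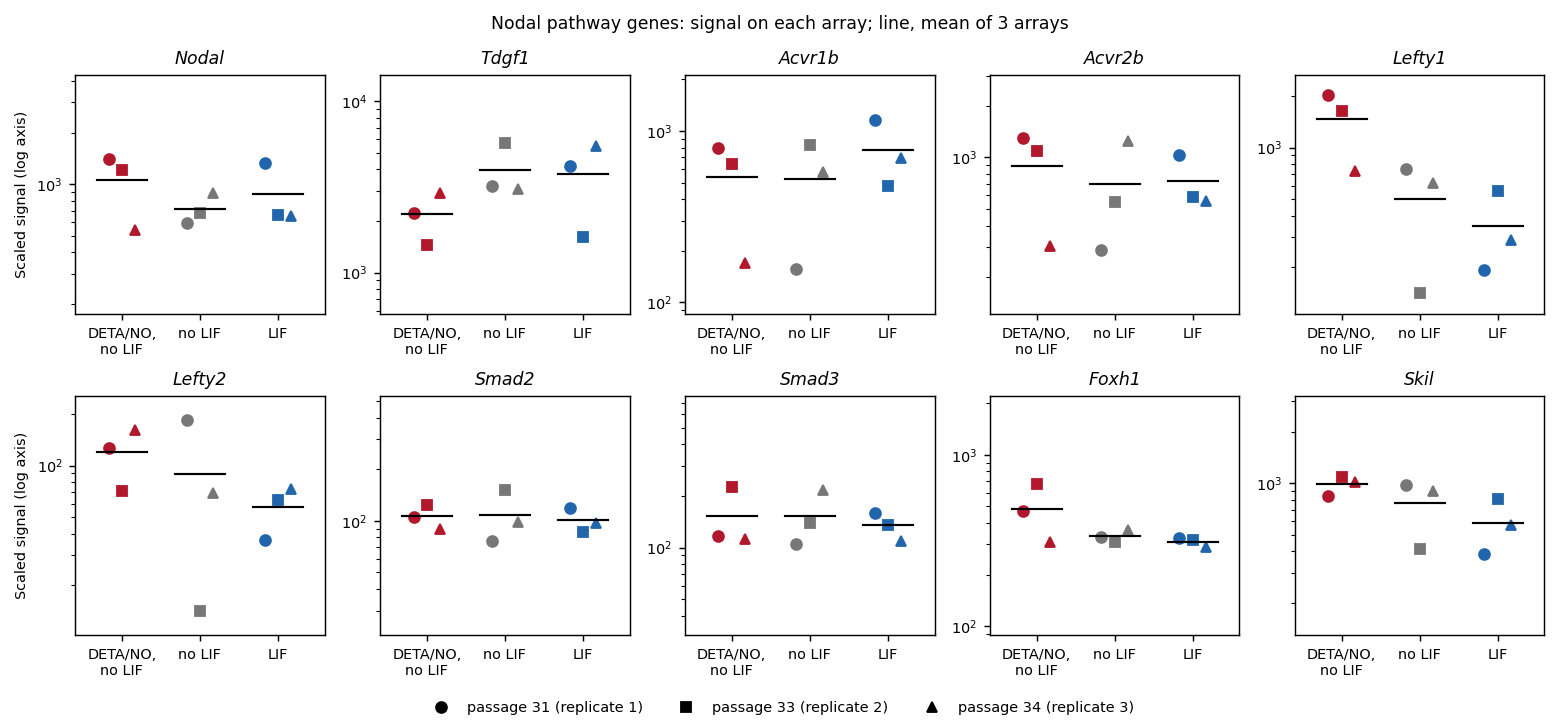
Signal of each gene on each array, on a log axis, for DETA/NO without LIF, no LIF and LIF; symbols mark the passage and the line is the mean of 3 arrays. Lefty1 and Skil have all 3 DETA/NO arrays above all 3 LIF arrays, and Tdgf1 has all 3 DETA/NO arrays below all 3 no LIF arrays.

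The ligand and the co-receptor come first. The 250 bases before the start of each gene are shown because the pathway feeds back on its own components through FOXH1 and SMAD proteins. They are RefSeq sequences of GRCm38.p6, Nodal from chr10:61417722-61417971 (+ strand) and Tdgf1 from chr9:110946159-110946408 (- strand). Capitals mark AATNNACA, a loose FOXH1-type pattern with any base at N, or a SMAD-type motif, CAGAC, searched on both strands.
Nodal: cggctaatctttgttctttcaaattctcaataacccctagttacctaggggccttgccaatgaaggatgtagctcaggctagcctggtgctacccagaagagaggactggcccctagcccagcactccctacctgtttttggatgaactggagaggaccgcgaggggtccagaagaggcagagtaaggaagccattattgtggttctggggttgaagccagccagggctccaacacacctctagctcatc
Tdgf1: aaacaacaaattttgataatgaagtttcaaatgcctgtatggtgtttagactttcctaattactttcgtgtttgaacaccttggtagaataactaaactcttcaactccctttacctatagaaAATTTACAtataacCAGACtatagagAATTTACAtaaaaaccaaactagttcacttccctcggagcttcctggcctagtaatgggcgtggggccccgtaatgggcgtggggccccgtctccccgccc
The Nodal window holds neither motif. The Tdgf1 window holds AATTTACA 127 to 120 and again 101 to 94 bases before the start, with CAGAC between them at 113 to 109. AATNNACA occurred in 10.9% of 32851 such windows of mouse genes and CAGAC in 42.2%, while 0.405% held AATNNACA at least 2 times together with CAGAC. That combination is the one the Tdgf1 window holds, so its share does not test how unusual that window is. Windows of 5 of the 10 genes were searched, and Tdgf1 was the only one of these 5 with an AATNNACA match. The remaining genes were not searched. AATNNACA leaves its 2 middle bases free, which read TT in both Tdgf1 matches, and a stricter FOXH1 motif was not searched. A match is a string of letters here and was not tested as a binding site.

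Nodal had signals of 1408, 1211 and 541 with DETA/NO, 595, 677 and 885 without LIF and 1326, 658 and 655 with LIF. The groups overlapped, and DETA/NO held both the highest and the lowest array. The log2 difference was 0.46 (SE 0.43) for DETA/NO against no LIF, 0.23 (SE 0.43) for DETA/NO against LIF and -0.23 (SE 0.43) for no LIF against LIF, with limma adjusted p of 0.936, 1 and 0.973. Its signal moved with the brightness of the arrays, with 1211 to 1408 on all 3 brighter arrays, above the 541 to 885 of the remaining 6. With array brightness as a block all 3 differences took the opposite sign, at -0.3, -0.15 and 0.15; the part of brightness in the Nodal signal was not tested further. The second Nodal probe set had signals of 159 to 396, and its ranges on the brighter and other arrays, 248 to 396 and 159 to 263, overlapped.

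Tdgf1, the membrane-anchored co-receptor, had signals of 2240, 1441 and 2900 with DETA/NO, 3180, 5672 and 3078 without LIF and 4185, 1613 and 5499 with LIF. All 3 DETA/NO arrays lay below all 3 no LIF arrays, a pattern seen in that direction in 2.52% of the tested probe sets. It averaged 2190 ± 730 with DETA/NO and 3980 ± 1470 without LIF (SD, n = 3 each), and the log2 difference was -0.86 with an SE of 0.47 (limma adjusted p = 0.929). The value was lower with DETA/NO in 3 of 3 passages, by 0.51, 1.97 and 0.09 on the log2 scale in passages 31, 33 and 34. Against LIF, at 3770 ± 1980 (SD, n = 3), the difference was -0.66 (SE 0.47; limma adjusted p = 1), and the lowest LIF array was replicate 2, the one whose Socs3 signal goes against its label. Without the no LIF and LIF replicate 2 arrays the difference from LIF was -1.19 (limma adjusted p = 0.788). The difference from no LIF shrank to -0.57 without no LIF replicate 2, the highest Tdgf1 array, whose Socs3 signal also goes against its label. For no LIF against LIF it was 0.19 (SE 0.47), and -0.62 without these 2 arrays. The array holds 1 probe set for Tdgf1, whose gene also has pseudogene copies in the mouse genome; RNA from such copies cannot be told apart in this signal.

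The activin receptors varied more between arrays of a group than between groups. Acvr1b, the type I receptor that phosphorylates the SMADs, had signals of 797, 640 and 171 with DETA/NO, 157, 832 and 579 without LIF and 1158, 480 and 700 with LIF. Its 2 lowest values came from the 2 most alike arrays, and the groups overlapped. The log2 differences were 0.07 (SE 0.71) for DETA/NO against no LIF, -0.71 (SE 0.71) for DETA/NO against LIF and -0.78 (SE 0.71) for no LIF against LIF, with limma adjusted p of 0.995, 1 and 0.973. The other Acvr1b probe set was dim, with signals of 9.57, 16.8 and 14 with DETA/NO, 7.15, 8.32 and 0.657 without LIF and 33.6, 9.44 and 13 with LIF. There all no LIF arrays lay below all arrays of both other groups, unlike in the brightest probe set. Its log2 difference was 1.11 (SE 0.58; limma adjusted p = 0.929) for DETA/NO against no LIF, -0.26 (SE 0.58; limma adjusted p = 1) for DETA/NO against LIF and -1.37 (SE 0.58; limma unadjusted p = 0.0371, adjusted p = 0.973) for no LIF against LIF. Acvr2b, a type II receptor that binds the ligand, had signals of 1293, 1090 and 302 with DETA/NO, 286, 551 and 1254 without LIF and 1027, 591 and 554 with LIF. DETA/NO replicate 3 and no LIF replicate 1 were again the lowest. Its log2 differences were 0.37, 0.12 and -0.25 (SE 0.64 each), with limma adjusted p of 0.965, 1 and 0.973. The second Acvr2b probe set gave -0.07, -0.69 and -0.62 (SE 0.45 each), and was lower with DETA/NO than with LIF in each passage. The third did not pass the filter, with signals of 5.17 to 16.4 with DETA/NO, 1.18 to 2.27 without LIF and 0.971 to 2.96 with LIF. There all DETA/NO arrays lay above all arrays of both other groups. The 40th percentile of signals was 12.9 to 14.6 on the brighter arrays, which include DETA/NO replicates 1 and 2. It was 8.17 to 10.4 on the other arrays. The part of brightness in this and the other dim probe sets was not tested.

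The feedback inhibitor Lefty1 had the widest difference of the 10 genes in both DETA/NO comparisons. It had signals of 2018, 1642 and 734 with DETA/NO, 752, 141 and 620 without LIF and 194, 558 and 289 with LIF. Every DETA/NO array lay above every LIF array, and DETA/NO replicate 3 lay just below no LIF replicate 1, its close match. Means were 1460 ± 660 with DETA/NO, 504 ± 321 without LIF and 347 ± 189 with LIF (SD, n = 3 each).

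The log2 difference of Lefty1 was 2.08 for DETA/NO against LIF (SE 0.66, 95% interval 0.63 to 3.54; limma unadjusted p = 0.00942, adjusted p = 1), higher in 3 of 3 passages by 3.36, 1.55 and 1.34. Its unadjusted p ranked 78 among the 29811 probe sets tested. Against no LIF it was 1.73 (SE 0.66, 95% interval 0.27 to 3.18; limma unadjusted p = 0.0243, adjusted p = 0.929), also higher in 3 of 3 passages, by 1.42, 3.51 and 0.24. For no LIF against LIF it was 0.36 (SE 0.66; limma adjusted p = 0.973), with passages at 1.93, -1.96 and 1.09. The 2 highest DETA/NO arrays are brighter arrays, and none of the no LIF arrays is. The third brighter array, LIF replicate 1, had the second lowest Lefty1 signal. The part of brightness in the Lefty1 differences was not tested beyond the values that follow. With array brightness as a block the differences from no LIF and LIF were 1.64 and 2.04. Among the 6 other arrays, where DETA/NO has only replicate 3, they were 0.86 each. The difference from no LIF was 0.98 without no LIF replicate 2, the array with the lowest Lefty1 signal.

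Lefty2, the neighbouring paralog, had signals of 126, 70.7 and 161 with DETA/NO, 183, 14.3 and 69.5 without LIF and 36.6, 62.5 and 72.9 with LIF. No LIF held both the highest and the lowest array, and the groups overlapped. The log2 difference was 0.92 (SE 0.74) for DETA/NO against no LIF, 1 (SE 0.74) for DETA/NO against LIF and 0.08 (SE 0.74) for no LIF against LIF, with limma adjusted p of 0.929, 1 and 0.993. It was higher with DETA/NO than with LIF in 3 of 3 passages. Without no LIF replicate 2 the difference between DETA/NO and no LIF was 0. Lefty1 and Lefty2 have closely related sequences, and how far their probe sets read each other's RNA was not tested.

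**Figure D2:**
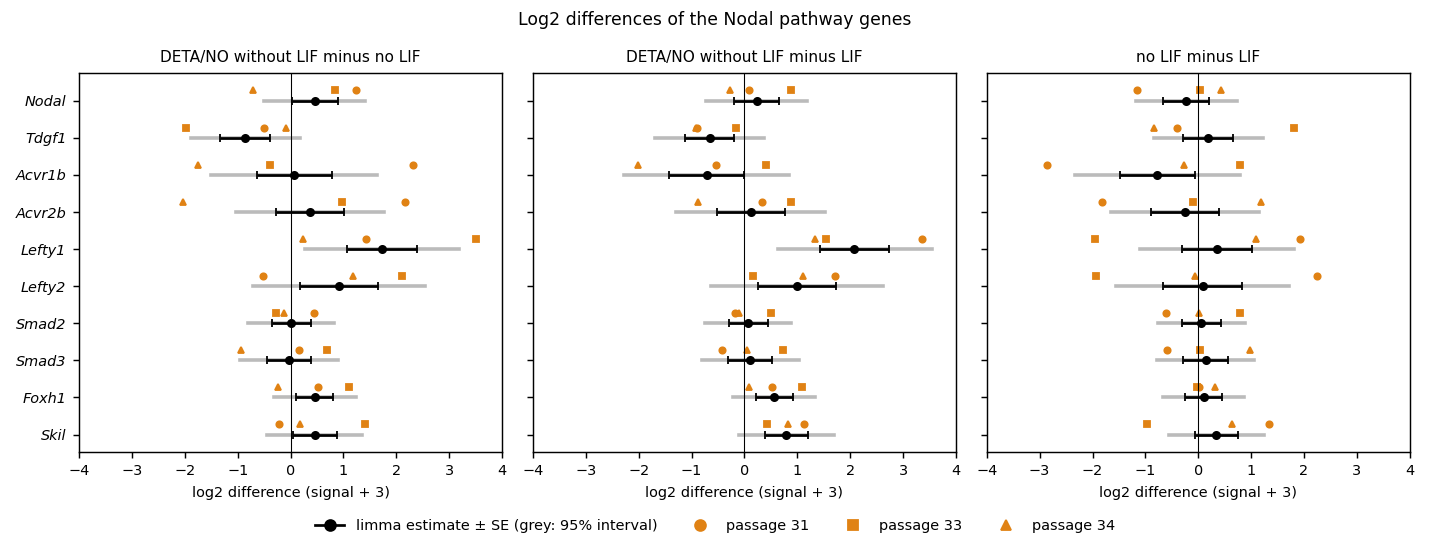
Log2 difference of each gene for DETA/NO against no LIF, DETA/NO against LIF and no LIF against LIF. Black points and bars are the limma estimate ± SE, grey bars its 95% interval, and orange symbols the difference within each passage; the Lefty1 interval lies above 0 in both DETA/NO comparisons, at 0.27 to 3.18 and 0.63 to 3.54.

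Skil encodes SnoN, a repressor that binds SMADs on their target genes and is itself induced by the pathway. It had signals of 847, 1087 and 1020 with DETA/NO, 978, 411 and 898 without LIF and 387, 806 and 574 with LIF. As for Lefty1, all DETA/NO arrays lay above all LIF arrays, by a narrow gap; 2 of the 10 genes had this pattern, which 2.79% of the tested probe sets had. The log2 difference was 0.79 against LIF (SE 0.41; limma unadjusted p = 0.078, adjusted p = 1), higher in 3 of 3 passages, and 0.46 against no LIF (SE 0.41; limma adjusted p = 0.931). The dimmer Skil probe set, at 8.56 to 59.9, gave 0.84 against LIF (SE 0.58; limma adjusted p = 1), with overlapping groups and a higher value with DETA/NO in 2 of 3 passages.

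By their brightest probe sets the SMAD transducers had log2 differences of at most 0.14 in size, and other probe sets gave larger ones. Smad2 had signals of 105, 124 and 90 with DETA/NO, 76.7, 151 and 98.8 without LIF and 119, 86.6 and 97.5 with LIF, and the groups overlapped. Its log2 differences were 0.01, 0.07 and 0.06 (SE 0.37 each), and the 95% interval of 0.07, for DETA/NO against LIF, was -0.75 to 0.89. Its second probe set ordered the arrays otherwise, with the highest signal on no LIF replicate 1, where the brightest one had its lowest, and its log2 differences were -0.13, 0.14 and 0.27 (SE 0.49 each). Smad3 had signals of 117, 226 and 112 with DETA/NO, 105, 139 and 217 without LIF and 159, 135 and 109 with LIF, and log2 differences of -0.03, 0.11 and 0.14 (SE 0.42 each). The other Smad3 probe sets were dim. One, at 6.2 to 25.3, had all no LIF arrays above all LIF arrays, with a log2 difference of 0.81 (SE 0.43; limma unadjusted p = 0.0862, adjusted p = 0.973), higher in 3 of 3 passages. The other, at 1.48 to 12.4, had all DETA/NO arrays above all LIF arrays, with 0.61 (SE 0.5; limma adjusted p = 1), and gave 0.64 for DETA/NO against no LIF (SE 0.5; limma adjusted p = 0.929). These intervals do not show that levels were equal, and SMAD activity depends on phosphorylation, which arrays do not measure.

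Foxh1, the DNA-binding partner of SMAD2 and SMAD3, had signals of 470, 675 and 309 with DETA/NO, 330, 310 and 363 without LIF and 327, 318 and 291 with LIF. The 2 highest arrays were DETA/NO replicates 1 and 2, and the other 7 lay close together. The log2 difference was 0.46 (SE 0.35; limma adjusted p = 0.929) against no LIF and 0.56 (SE 0.35; limma adjusted p = 1) against LIF. The second Foxh1 probe set, about as bright, gave 0.12 and 0.27, and the third 0.29 and 0.23 (SE 0.35 each; limma adjusted p = 0.979, 1, 0.954 and 1). DETA/NO replicate 2 was highest in all 3, but in the second no LIF replicate 3, at 484, lay above DETA/NO replicate 1, at 425. Within the 6 arrays that are not brighter the difference from no LIF was -0.11, a value that rests on DETA/NO replicate 3 alone.

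**Figure D3:**
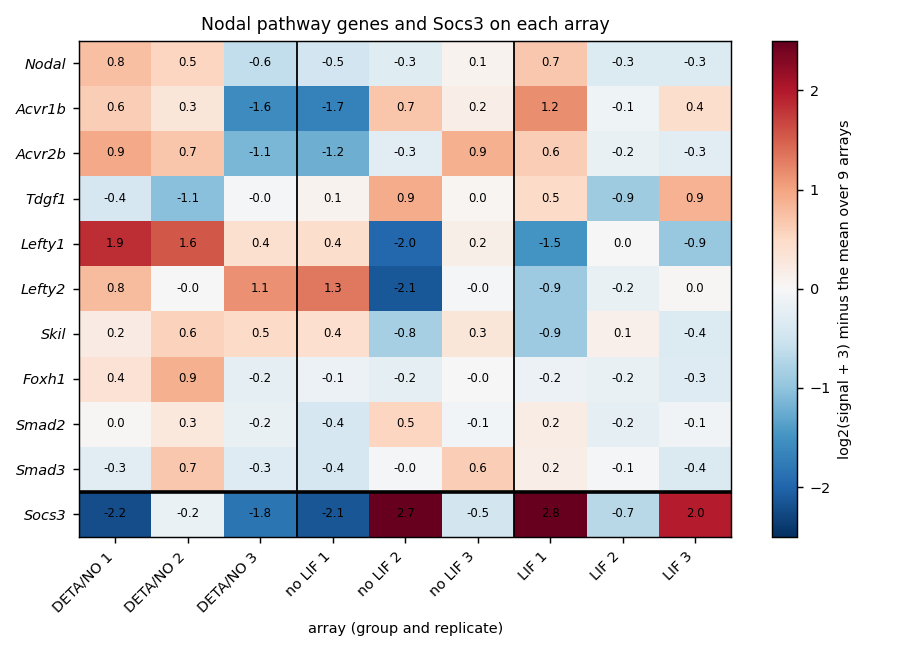
Log2(signal + 3) of each gene on each array minus its mean over the 9 arrays, with Socs3 in the bottom row. Lefty1, Lefty2 and Skil are lowest on no LIF replicate 2 or LIF replicate 1, arrays with high Socs3, and the highest Nodal signals are on DETA/NO replicates 1 and 2 and LIF replicate 1.

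The ligand and co-receptor were then set beside the inhibitors over the 9 arrays, with 6 pairs of genes compared. None passed after adjustment over the 6. No relation of Nodal to either inhibitor passed the test, neither Lefty1 (Pearson r = 0.31, exact permutation p = 0.409; Spearman rho = 0.13, p = 0.744) nor Lefty2 (r = -0.15, exact permutation p = 0.708; rho = -0.43, p = 0.25), with adjusted p of 0.54 and 0.708 for r and 0.744 and 0.5 for rho. Tdgf1 was low where Lefty1 was high (r = -0.8, exact permutation p = 0.0111, adjusted p = 0.0666; rho = -0.73, p = 0.0311, adjusted p = 0.0933). Lefty1 and Lefty2 were high together (r = 0.73, exact permutation p = 0.0233, adjusted p = 0.0699; rho = 0.73, p = 0.0311, adjusted p = 0.0933). Nodal with Tdgf1 and Tdgf1 with Lefty2 gave r = -0.28 and -0.41 (exact permutation p = 0.45 and 0.274, adjusted p = 0.54 each), with rho = -0.2 and -0.27 (p = 0.613 and 0.493, adjusted p = 0.736 each).

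The 3 arrays with the highest Socs3 signals, LIF replicates 1 and 3 and no LIF replicate 2, had the 3 lowest Lefty1 and the 3 highest Tdgf1 signals. Without them Tdgf1 with Lefty1 gave r = -0.38 and rho = -0.14 (n = 6, exact permutation p = 0.433 and 0.803), and Lefty1 with Lefty2 gave r = 0.1 and rho = 0.54 (n = 6, exact permutation p = 0.772 and 0.297). Nodal with Lefty1 gave r = 0.84 and rho = 0.54 over the same 6 arrays (exact permutation p = 0.0514 and 0.297, adjusted p = 0.308 and 0.534). Leaving out the extremes of Tdgf1 and Lefty1 narrows their range, so these values do not test whether the relations depend on those arrays. Without the 2 arrays farthest from the Tdgf1 median, DETA/NO replicate 2 and LIF replicate 2, r between Tdgf1 and Lefty1 was -0.93 (n = 7, exact permutation p = 0.00317, adjusted p = 0.019). Over the same 7 arrays rho was -0.86 (exact permutation p = 0.0238, adjusted p = 0.143). The arrays left out had the 2 lowest Tdgf1 signals. They were picked by values that enter the correlation, so this p is not a separate test of the relation. Without the 2 farthest from the Lefty1 median r between Lefty1 and Lefty2 was 0.5 (n = 7, exact permutation p = 0.231). The corresponding values were 0.46 for Nodal with Lefty1, -0.24 for Nodal with Lefty2, -0.48 for Nodal with Tdgf1 and -0.74 for Tdgf1 with Lefty2. Within the 6 arrays that are not brighter r was -0.72 for Tdgf1 with Lefty1 and 0.89 for Lefty1 with Lefty2, and the 3 brighter arrays are too few for a value. As deviations from group means these were -0.75 and 0.66.

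**Figure D4:**
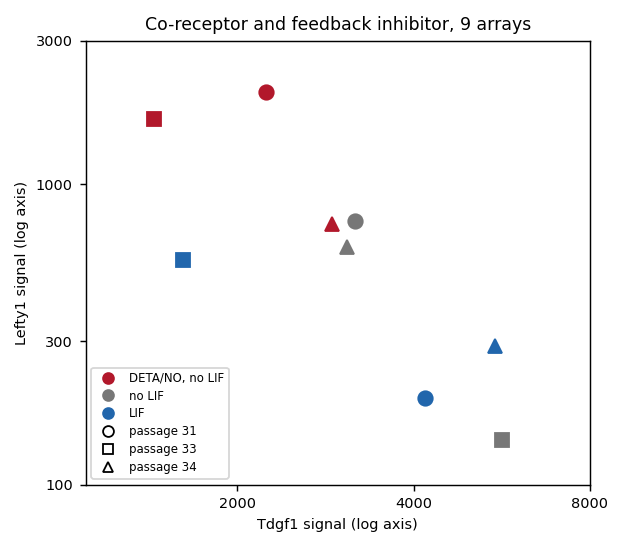
Signal of Tdgf1 against Lefty1 on the 9 arrays, both on log axes; colour marks the group and shape the passage. The 3 arrays at the lower right, with Lefty1 at 141 to 289, are no LIF replicate 2 and LIF replicates 1 and 3.

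Genes with the most similar pattern were listed by Pearson r over the 9 arrays among 13376 genes, as a description. For Nodal they were Agbl3, Kdm2a and Slc39a1 (r = 0.978, 0.974 and 0.97), for Tdgf1 Tmem160, Slc25a31 and Hhex (0.947, 0.918 and 0.914), for Lefty1 Cachd1, Arhgap42 and Tmem30b (0.971, 0.963 and 0.956), and for Lefty2 Mib1, Gstcd and Klf7 (0.955, 0.952 and 0.945). None of the other 9 pathway genes was among the 3 closest of any of these 4.

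A wider list of 36 genes of the pathway was read beside the 10, of which 33 have a probe set of their own and 30 passed the filter. By their brightest probe sets, limma called 0 of the 30 in each comparison. An unadjusted p under 0.05 was reached by 0, 0 and 1 for DETA/NO against no LIF, DETA/NO against LIF and no LIF against LIF. The 1 gene was Tgfbr2, a TGF-beta receptor, with a log2 difference of -1.07 (SE 0.42). Dimmer probe sets of Tgfbr2 and Acvr2a also reached it for DETA/NO against LIF. They gave -1.76 (SE 0.69; limma unadjusted p = 0.0275) and 0.95 (SE 0.42; limma unadjusted p = 0.0433), and neither was called. With DETA/NO, 22 of 30 were higher than without LIF (median log2 difference 0.23) and 17 of 30 higher than with LIF (median 0.08). Without LIF, 19 of 30 were lower than with LIF (median -0.26). Over all tested probe sets 56% and 52.2% were higher with DETA/NO and 42.7% higher without LIF.

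Among the other ligands, Inhbb, which encodes an activin subunit, had signals of 314, 17.8 and 7.29 with DETA/NO, 16.1, 1205 and 55.1 without LIF and 3039, 9.77 and 631 with LIF. It was high on the 3 arrays with high Socs3. Gdf3, a ligand that also uses Tdgf1, had signals of 962, 661 and 315 with DETA/NO, 346, 472 and 394 without LIF and 810, 332 and 601 with LIF. The proteases Pcsk6 and Furin, which cut the Nodal precursor, had log2 differences of -0.2 and -0.07 for DETA/NO against no LIF and -1.5 and -0.42 for DETA/NO against LIF. The receptors Tgfbr1 and Acvr2a stood at 0.35 and 0.81 against no LIF and 0.01 and 0.41 against LIF. Smad4, the shared partner of SMAD2 and SMAD3, and Zfyve9, which presents SMAD2 and SMAD3 to the receptor, stood at 0.19 and 0.55 and at 0.32 and 0.34. The repressor Tgif1 and the phosphatase Ppm1a stood at -0.13 and 0.53 and at -0.4 and 0.18.

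Among the other extracellular inhibitors, Fst, which encodes the activin-binding protein follistatin, had signals of 168, 483 and 554 with DETA/NO, 594, 36.8 and 34.1 without LIF and 84.4, 209 and 38 with LIF. Its log2 differences were 1.9 (SE 1.02) and 1.98 (SE 1.02) against no LIF and LIF. Bambi, a receptor-like inhibitor, stood at 0.24 and -0.52. The target genes lay higher with DETA/NO than with LIF in 5 of 7 (median 0.62) and than without LIF in 6 of 7 (median 0.26). Over all tested probe sets 52.2% and 56% were higher. None of the 7 reached an unadjusted p under 0.05, and SEs were 0.36 to 1.46. Against no LIF, Eomes, Gsc, Mixl1, Foxa2 and Lhx1 were lower in passage 31, by 2.96, 2.56, 3.78, 1.47 and 2.94. They were higher in passages 33 and 34. Eomes, a T-box factor of mesendoderm, had signals of 64.2, 153 and 519 with DETA/NO, 522, 54.1 and 39.9 without LIF and 55.7, 144 and 56.9 with LIF. Its 2 highest arrays were the most alike pair. Lefty1 was highest on DETA/NO replicates 1 and 2, with the most alike pair next. Pmepa1, another target of the pathway, stood at -0.06 and -0.27.

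Markers of other cell types were read as summed signals. The 8 primitive streak markers, of which Eomes, Gsc, Lhx1 and Mixl1 are also among the 7 target genes above, summed to 142, 549 and 1200 with DETA/NO, 1210, 72.4 and 123 without LIF and 91.2, 576 and 87.1 with LIF, with the highest sums on no LIF replicate 1 and DETA/NO replicate 3. Lefty2 and Fst also had their 2 highest signals on these 2 arrays. Lefty1 was highest on DETA/NO replicates 1 and 2, where the sums were 142 and 549. Its next highest signals, 752 and 734, were on no LIF replicate 1 and DETA/NO replicate 3. The 10 extraembryonic endoderm markers summed to 2200 to 4780 with DETA/NO, 2240 to 6580 without LIF and 4660 to 12400 with LIF, with Afp, one of them, at 0.132 to 13.7. Sparc, Lamb1 and Col4a1, with mean signals of 2597, 1453 and 923, weigh most in this sum. Fibroblast markers (9 genes) summed to 90.7 to 294, 97.9 to 373 and 142 to 399, and trophoblast markers (5 genes) to 298 to 974, 265 to 777 and 202 to 1130, in the same order of groups. The filter on dim signals was passed by 8 of the 10 endoderm, 5 of the 9 fibroblast and 4 of the 5 trophoblast markers. The part of these cells in the Nodal pathway signals was not tested.

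**Figure D5:**
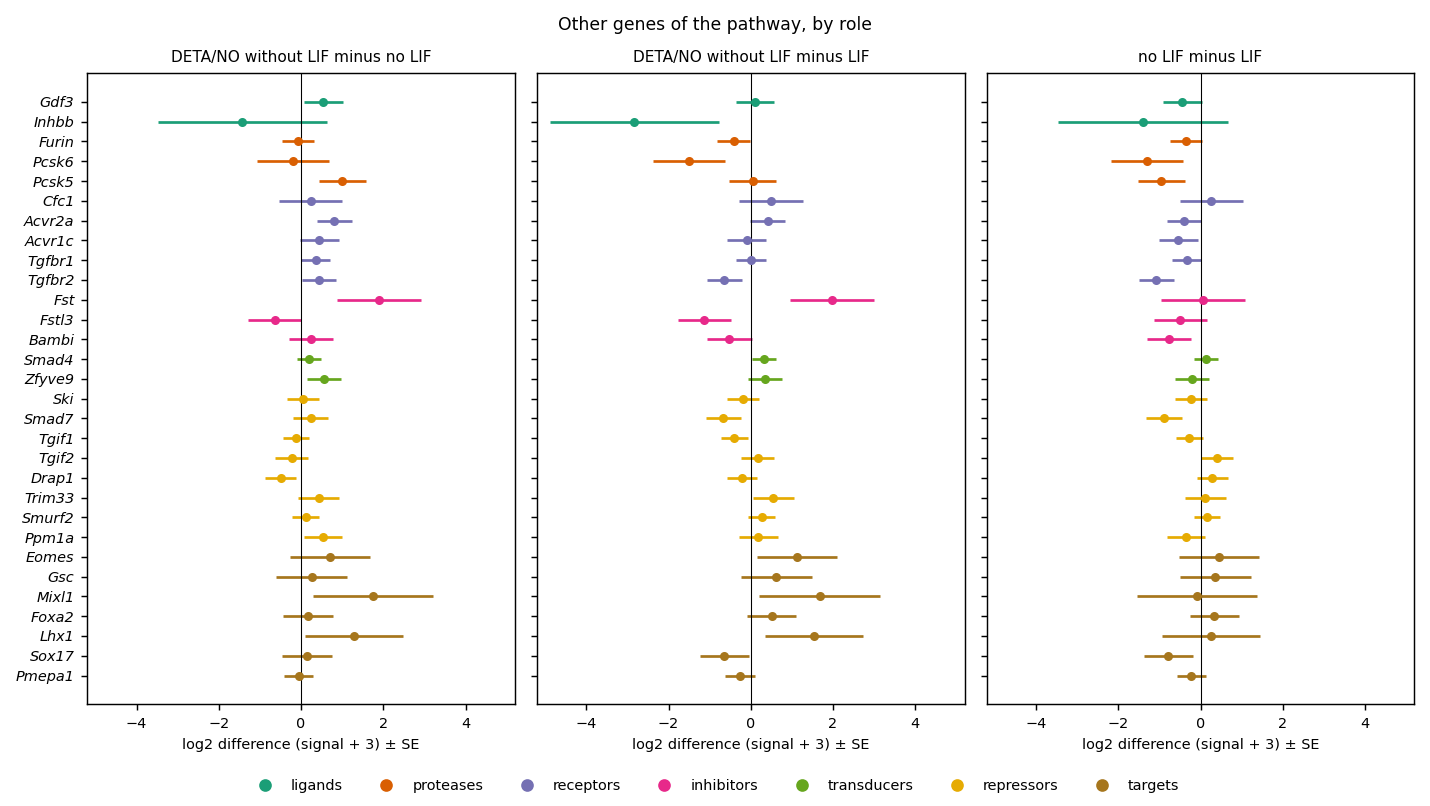
Log2 difference ± SE of the 30 other tested genes of the pathway, coloured by role, for DETA/NO against no LIF, DETA/NO against LIF and no LIF against LIF. Inhbb has the widest error, at 2.06, and Fst lies at 1.9 and 1.98 in the DETA/NO comparisons.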

How the data were processed

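The deposited values are linear signal intensities of 9 Affymetrix Mouse Genome 430 2.0 arrays, made by the authors with GeneChip Operating System version 1.4.0.036 and global scaling, per the labels and design text; the submitters' processing notes name MAS5. The 2% trimmed mean of each array was 100. Only these signals were analysed here. Signals were turned to log2(signal + 3), so differences of dim probe sets are understated. The 64 control probe sets were left out, and the filter kept probe sets that reached the array's 40th percentile on 3 arrays or more. Gene names come from GEO's platform table; the 20 used here matched RefSeq genes of GRCm38.p6 with the same symbol. Where a gene has several, the one with the highest mean signal stands for it.

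One limma 3.58.1 fit (R 4.3.3; lmFit, eBayes with intensity trend, two-sided) covered all 9 arrays with group as the term, and the Benjamini-Hochberg adjustment ran over the 29811 probe sets in it, with 0.05 as threshold. Correlations used exact permutations over all pairings. The fit was also run on simulated data as a check of the code only, and no limit of detection is drawn from it. Alternatives changed the pseudocount, filter, normalization, variance trend, block, arrays entered and probe set. The replicate number stands for the passage in the sample titles; arrays sharing a passage deviated from their group means with correlations of -0.597 to 0.65, and the fit without a passage block is the one reported. The number of arrays, 3 per group, and their spread limit the precision; the median SE of a log2 difference was 0.5. The genes named are the 10 members, the 2 brightest other pathway genes of each role, any called gene and the 3 closest patterns; names outside this were chosen after their values were seen. Members, lists and alternatives were chosen with earlier results of these data known.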

Additional observations from a re-analysis of the deposited data

How the results depend on the processing

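No alternative gave a call: 0 probe sets passed in each comparison under all 21 alternatives to the fit, and 0 of 657 alternative values for the 10 genes passed, the smallest adjusted p being 0.23. Unadjusted counts ranged from 320 to 4290 for DETA/NO against no LIF, 258 to 1653 for DETA/NO against LIF and 255 to 2444 for no LIF against LIF. With the replicate number as a block 0 probe sets were called in each comparison, and Lefty1 stood at 1.73 against no LIF and 2.08 against LIF (limma adjusted p = 0.916 and 1). The titles give same-numbered arrays the same passage, although their deviations correlated both ways. Unadjusted counts under the block were 1602, 471 and 493 for DETA/NO against no LIF, DETA/NO against LIF and no LIF against LIF, and the block changed no call. Of the 30 values, 12 kept their sign in every alternative run, Lefty1, Lefty2 and Skil in both DETA/NO comparisons and Tdgf1 in both among them, although Lefty2 against no LIF went to 0 without no LIF replicate 2. Lefty1 ranged from 0.86 to 2.61 against no LIF and 0.86 to 2.52 against LIF. The other 18 turned sign somewhere, as follows, and the cause was not tested.

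With array brightness as a block, values for DETA/NO against no LIF were -0.3 for Nodal, -0.95 for Acvr1b, -0.57 for Acvr2b and -0.22 for Smad2. For DETA/NO against LIF they were -0.15 for Nodal, -0.35 for Acvr2b, -0.04 for Smad2 and -0.04 for Smad3, and for no LIF against LIF 0.15 for Nodal, 0.21 for Acvr2b and -0.18 for Lefty2. Within the 6 arrays that are not brighter, values for DETA/NO against no LIF were -0.39 for Nodal, -1.3 for Acvr1b, -0.94 for Acvr2b, -0.21 for Smad2 and -0.11 for Foxh1. For DETA/NO against LIF they were -0.28 for Nodal, -0.91 for Acvr2b, -0.03 for Smad2 and -0.11 for Smad3, and for no LIF against LIF 0.11 for Nodal, 0.03 for Acvr2b and -0.2 for Lefty2; the lone DETA/NO array is there assumed to vary like the other groups. Without the replicate 2 arrays of no LIF and LIF, values were -0.62 for Tdgf1 and -0.3 for Smad2 (no LIF against LIF) and -0.03 for Smad2 (DETA/NO against LIF). Without the most alike pair they were 0.26 for Acvr2b, -0.09 for Lefty1 and -0.72 for Lefty2 (no LIF against LIF) and -0.1 for Smad2 (DETA/NO against no LIF). Scaling turned only DETA/NO against no LIF: median centring gave -0.16 for Acvr1b and -0.22 for Smad2, and quantile normalization -0.14 for Smad2. Other probe sets gave, for DETA/NO against no LIF, -0.07 for Acvr2b, -0.13 for Smad2 and 0.64 for Smad3; for DETA/NO against LIF, -0.03 for Nodal and -0.69 for Acvr2b; and for no LIF against LIF, -0.03 for Smad3 and -0.06 for Foxh1.

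Leaving out 1 array at a time, DETA/NO against no LIF ranged from -0.64 to 0.75 for Acvr1b, -0.14 to 1.02 for Acvr2b, -0.21 to 0.27 for Smad2 and -0.35 to 0.25 for Smad3. DETA/NO against LIF ranged from -0.04 to 0.65 for Nodal, -0.27 to 0.77 for Acvr2b, -0.04 to 0.19 for Smad2 and -0.21 to 0.29 for Smad3. No LIF against LIF ranged from -0.4 to 0.11 for Nodal, -0.33 to 0.55 for Tdgf1, -0.8 to 0.26 for Acvr2b, -0.09 to 1.11 for Lefty1, -0.72 to 1 for Lefty2, -0.2 to 0.28 for Smad2 and -0.14 to 0.38 for Smad3.

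Of the correlations, Nodal with Tdgf1 was 0.06 and Nodal with Lefty1 -0.15 within the 6 arrays that are not brighter, Nodal with Lefty2 was 0.38 without the most alike pair, and Tdgf1 with Lefty2 was 0.64 without the 3 arrays of highest Socs3, an alternative chosen after seeing the data. Tdgf1 with Lefty1 passed by Pearson's r, at -0.93, without the 2 arrays farthest from the Tdgf1 median, which were picked by their Tdgf1 signals. It did not pass there by Spearman's rho (-0.86, adjusted exact permutation p = 0.143), and missed the threshold in the other 6 alternatives.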

Other observations

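Inhba, which encodes another activin subunit, was too dim to be tested. It was listed at 20.9, 6.72 and 7.5 on the DETA/NO arrays, 6.52, 1.04 and 0.693 on the no LIF arrays and 3.31, 3.85 and 1.94 on the LIF arrays. All DETA/NO arrays were above all arrays of both other groups, by as little as 6.72 against 6.52, and it was named after its values were seen. Its second probe set, at 0.404 to 3.2, had overlapping groups in every comparison. On all 9 arrays its signal was below the median of the array. Cfc1, a co-receptor related to Tdgf1, had signals of 16, 69.5 and 58.2 with DETA/NO, 53.5, 17 and 43 without LIF and 14.8, 96.6 and 14.1 with LIF. Its low arrays include the 3 with the highest Tdgf1 signals, and this was noted after the values were seen.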
